A study of Mus musculus with 10 samples.

Results

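The 10 genes described here encode pulmonary surfactant proteins and proteins of the lamellar body, the organelle that stores surfactant. They were found by symbol among the 39017 genes of the count table: the surfactant proteins Sftpa1, Sftpb, Sftpc and Sftpd, and the lamellar body or alveolar type 2 (AT2) genes Abca3, Lamp3, Napsa, Slc34a2, Lpcat1 and Ctsh. All 10 were among the 16216 genes that passed the filter on low counts. RNA was sequenced from 10 lung tumor samples of C57BL/6 mice, 5 labelled Control (KP) and 5 labelled Glut1KO (KPG1), which were homozygous fl/fl for Slc2a1, which encodes the glucose transporter Glut1. Lesions in both groups were started by the same engineered alleles and by Ad5SPC-Cre, an adenovirus instilled into the trachea in which the promoter of surfactant protein C drives Cre recombinase, and they were collected 18 weeks and 6 days later. The control labels give the Slc2a1 genotype as heterozygous fl/wt in one field and as WT in another, so the controls may hold a floxed copy as well. Each sample is the CD45- fraction of dissociated tumors, which is depleted of leukocytes but can still hold endothelial cells, fibroblasts and normal epithelium. The labels do not say whether 1 sample is 1 lesion or 1 animal, so the p-values measure the spread between these samples.

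Surfactant is a film of phospholipid and protein that lowers surface tension in the alveolus, and AT2 cells make it. They pack the lipid, together with surfactant proteins B and C, into lamellar bodies and release it by exocytosis. In lung adenocarcinoma that arises from AT2 cells, expression of these genes is used as a sign of retained alveolar identity. The study examined glucose use in tumors of these genotypes and in organelles of their cells that resemble lamellar bodies. The organelles were imaged in tumors taken later after initiation than those sequenced here. The comparison of KPG1 with KP asks whether the genes of that organelle differ when Slc2a1 is targeted.

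Libraries held 32427029 to 49534284 counts, and counting error is small at the levels of the 10 genes. On the first principal component of all tested genes, which held 28.0% of the variance, KP 1 at -74.0 and KP 5 at 71.8 lay at the ends, with the other 8 libraries between -35.0 and 30.4. The results below that rest on KP 1 are therefore given with and without it, and the fold changes of the 10 genes also without KP 5. Slc2a1, the targeted gene, was at 78.8, 127, 123, 109 and 71.7 CPM (counts scaled to library size by TMM, a factor that balances the bulk of the genes) in KP 1 to KP 5 and at 47.3, 66.8, 40.8, 51.3 and 44.3 CPM in KPG1 1 to KPG1 5. All KPG1 libraries lay below all KP libraries. The log2 fold change (KPG1 over KP) was -1.01 (SE 0.20) with an adjusted p of 0.0675 in the limma fit across all genes, outside the threshold of 0.05, and an exact two-sided permutation test of the group means gave p = 0.00794, the smallest that 5 against 5 libraries allow.

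The 10 genes lie on 8 chromosomes of mm10. Sftpa1 (chr14:41131782-41136452, plus strand) and Sftpd (chr14:41172214-41185149, minus strand) lie near each other, and their ends face each other across 35761 bases. Genes between them were not looked for. Sftpc lies elsewhere on the same chromosome (chr14:70520949-70524081, minus strand). The others are Sftpb (chr6:72304610-72314371, plus strand), Abca3 (chr17:24351950-24410201, plus strand), Lamp3 (chr16:19653378-19706375, minus strand), Napsa (chr7:44572380-44586862, plus strand), Slc34a2 (chr5:53038081-53071664, plus strand), Lpcat1 (chr13:73467197-73516422, plus strand) and Ctsh (chr9:90054152-90076089, plus strand). All 10 are annotated as protein coding in GENCODE M21. Genes on the opposite strand overlap Abca3 (D330041H03Rik and Gm25618), Napsa (Gm15396) and Slc34a2 (Gm17182). The library kit keeps the strand, but the strand setting of the counting is not given in the sources used here, so reads from these partners could be included.

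The 250 bases before the start site are shown for Sftpb and Sftpa1, and for Abca3, the single gene of the 10 whose groups did not overlap. Sftpb and Sftpa1 were lowest in the same 2 tumors, KP 1 and KP 4. So were Abca3, Sftpc, Lamp3, Napsa, Slc34a2 and Lpcat1, so this does not set the 2 genes apart. Sequences are from RefSeq on GRCm38.p6, on the strand of the gene, 5′ to 3′. Capitals mark TCAAG on either strand (CTTGA on the other strand), the core of the site of NKX2-1, a homeobox factor known to act on surfactant genes, and TATAAA on the gene's strand.
Sftpb (chr6:72304360-72304609, plus strand): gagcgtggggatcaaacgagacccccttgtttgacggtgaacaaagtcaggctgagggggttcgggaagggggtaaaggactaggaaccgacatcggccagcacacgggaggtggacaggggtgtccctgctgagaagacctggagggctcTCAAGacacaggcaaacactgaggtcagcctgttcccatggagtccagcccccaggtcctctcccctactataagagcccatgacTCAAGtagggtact
Sftpa1 (chr14:41131538-41131787, plus strand): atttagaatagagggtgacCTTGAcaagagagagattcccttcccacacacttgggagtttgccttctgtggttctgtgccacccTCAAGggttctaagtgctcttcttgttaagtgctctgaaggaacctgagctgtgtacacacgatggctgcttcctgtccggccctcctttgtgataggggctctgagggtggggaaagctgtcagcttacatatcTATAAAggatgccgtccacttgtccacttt
Abca3 (chr17:24351773-24352022, plus strand): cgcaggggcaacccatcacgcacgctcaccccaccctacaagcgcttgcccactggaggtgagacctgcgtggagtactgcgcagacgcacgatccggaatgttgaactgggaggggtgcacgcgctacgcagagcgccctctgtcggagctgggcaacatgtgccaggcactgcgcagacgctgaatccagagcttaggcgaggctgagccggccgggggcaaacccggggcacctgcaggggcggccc

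In Sftpb, TCAAG began at -99 and -14 from the start site, and in Sftpa1 it lay at -231 on the other strand and at -165 on the gene's strand, with TATAAA at -30. The window of Abca3 held neither. Windows of 6 of the 10 genes were searched, and TCAAG was found in these 2 alone, against 35.9% of 32851 promoter windows of the same length, so the match is common. Of the motifs of 2 other factors known from AT2 cells, TGTTTAC (FOXA) was found in Lamp3 and in 3.17% of all windows, and TTGCNNAA (C/EBP) was found in Slc34a2 and in 9.56%. These motifs do not overlap each other in the members' windows. Lpcat1 held none of them. Windows of Sftpc, Sftpd, Napsa and Ctsh were not analysed here.

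The 10 genes took a large part of every library. Together they held 2.27%, 6.33%, 6.09%, 3.07% and 5.81% of all counts in KP 1 to KP 5 and 8.98%, 6.27%, 5.30%, 6.35% and 6.60% in KPG1 1 to KPG1 5. The low tumors were KP 1 and KP 4, the high one was KPG1 1, and the groups overlapped. KP libraries averaged 4.71% ± 1.90 (SD, n = 5) and KPG1 libraries 6.70% ± 1.37 (SD, n = 5), and without KP 1 the KP mean was 5.33% ± 1.52 (SD, n = 4). This share is of all counts as sequenced, with no TMM factor. Most of this was the 4 surfactant proteins, at 1.84% to 5.24% of a library in KP and 4.23% to 7.39% in KPG1. Wilson 95% intervals of these shares were at most 0.0168 percentage points wide and cover counting error only. In bulk RNA a smaller share of AT2-like tumor cells and less RNA of these genes per cell cannot be told apart.

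**Figure D1:**
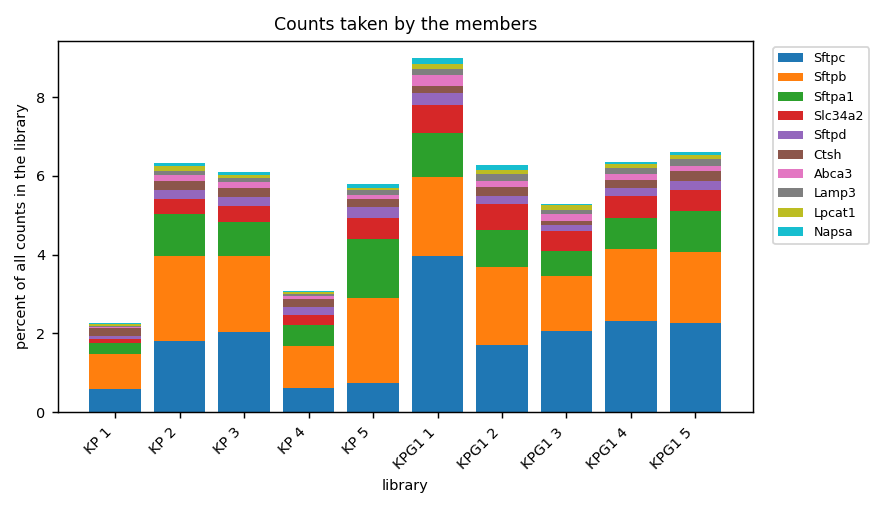
Stacked bars give the percent of all counts in each library (x axis, KP 1 to KP 5 and KPG1 1 to KPG1 5) taken by each of the 10 genes. Sftpc, Sftpb and Sftpa1 make up most of each bar, KP 1 (2.27%) and KP 4 (3.07%) are the shortest bars and KPG1 1 (8.98%) is the tallest.

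Levels were ordered per length as TPM, which divides counts by exon length and scales each library to the same total. Sftpc, the hydrophobic peptide precursor made almost only by AT2 cells, came first. Its mean over 5 libraries was 37426 ± 21458 TPM (SD) for KP and 80174 ± 25698 TPM for KPG1. Sftpb, the other hydrophobic protein, followed at 28261 ± 10730 TPM in KP and 31012 ± 3627 TPM in KPG1. In KP the means of these 2 genes differed by less than the larger SD, whereas in KPG1 Sftpc was above Sftpb in all 5 libraries and their means differed by more than either SD. Sftpa1, a collectin that binds microbes and lipid, stood at 10111 ± 5773 TPM in KP and 10702 ± 2142 TPM in KPG1. It was above the next gene in all 10 libraries and below Sftpb in all 10.

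Below these 3 genes the order was closer. Sftpd, the second collectin, was at 2801 ± 1046 TPM in KP and 2972 ± 718 TPM in KPG1, and Slc34a2, the apical sodium phosphate cotransporter of AT2 cells, was at 2298 ± 1187 TPM and 3983 ± 524 TPM. Sftpd was above Slc34a2 in 5 of 5 KP libraries and Slc34a2 was above Sftpd in 5 of 5 KPG1 libraries, although the KP means lay within 1 SD of each other. Ctsh was at 1615 ± 165 TPM in KP and 1483 ± 336 TPM in KPG1, and Lamp3 was at 822 ± 501 TPM and 1543 ± 291 TPM. In KPG1 these last 2 genes could not be ordered, with Lamp3 higher in 3 of 5 libraries. Napsa (809 ± 409 and 1005 ± 536 TPM) and Lpcat1 (557 ± 215 and 850 ± 54.4 TPM) had means within 1 SD of each other in both groups. Abca3 had the lowest mean in both, at 344 ± 144 TPM in KP and 636 ± 151 TPM in KPG1.

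None of the 10 genes passed an adjusted p of 0.05 in the comparison of KPG1 with KP by limma-voom, where 0.173% of all tested genes did. The count was also 0 of 10 by the quasi-likelihood test of edgeR (background 0.247%) and by DESeq2 (3.46%). At an unadjusted p under 0.05, limma counted 4 of 10 (Sftpc, Abca3, Slc34a2 and Lpcat1, all higher in KPG1), against 5.26% of all tested genes in that direction, and the count was the same 4 genes without KP 1 (5.59%). edgeR and DESeq2 each counted 3 of 10, without Slc34a2, against 12.5% and 14.1% of all tested genes in either direction. Fitted values were higher in KPG1 for 9 of 10 genes, where 52.7% of all tested genes were, with a median log2 fold change of 0.49 against 0.02 over all tested genes. That count depended on KP 1. Without this library it was 6 of 10 (background 51.6%), and Sftpa1, Sftpb, Sftpd and Ctsh had fitted values below 0. Without KP 5 the log2 fold changes were 0.36 for Sftpb, 0.32 for Sftpd, 1.14 for Sftpc, 1.01 for Abca3 and 0.68 for Lpcat1. They were 1.54 for Lamp3, 1.25 for Slc34a2, 0.54 for Sftpa1, 0.54 for Napsa and -0.13 for Ctsh. The lowest limma adjusted p of the 10 genes there was 0.155, for Slc34a2.

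**Figure D2:**
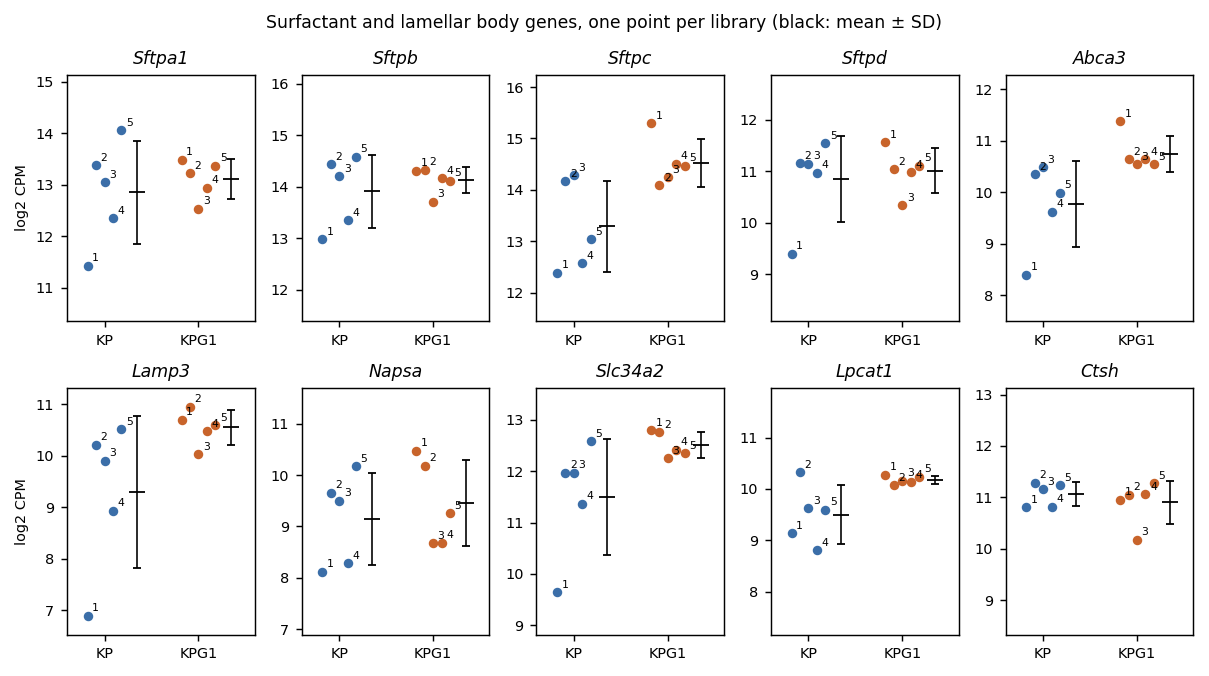
Each panel shows 1 gene, with log2 CPM on the y axis over the same span in each panel, 1 point per library numbered within its group, and the mean ± SD of 5 libraries in black. KP 1 is the lowest point for 8 of the 10 genes, and Abca3 is the panel in which the 2 groups do not overlap.

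Of the genes of the hydrophobic surfactant proteins, Sftpc had the larger fitted difference between groups. It was at 12.39, 14.16, 14.28, 12.58 and 13.04 log2 CPM in KP 1 to KP 5 and at 15.29, 14.09, 14.25, 14.51 and 14.47 log2 CPM in KPG1 1 to KPG1 5. KP 2 and KP 3 lay within the KPG1 range and the other 3 KP tumors lay below it. The log2 fold change was 1.22 (SE 0.40, 95% interval 0.35 to 2.09), with a limma adjusted p of 0.272. Without KP 1 it was 1.00 (adjusted p 0.373). The promoter of this gene is the one that drives Cre in the virus, so tumors of both groups started from cells in which it was active.

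Sftpb, which is needed to form lamellar bodies, was at 12.97, 14.43, 14.20, 13.35 and 14.59 log2 CPM in KP 1 to KP 5 and at 14.30, 14.33, 13.71, 14.16 and 14.12 log2 CPM in KPG1 1 to KPG1 5. The KPG1 libraries lay inside the range of the KP libraries. The log2 fold change was 0.21 (95% interval -0.46 to 0.88, SE 0.30) with an adjusted p of 0.832 in limma, and its sign turned without KP 1 (-0.02).

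The RNAs of these 2 genes did not keep one ratio. Per length, Sftpc was 1.27, 1.58, 2.01, 1.11 and 0.653 times Sftpb in KP 1 to KP 5 and 3.78, 1.62, 2.77, 2.41 and 2.43 times Sftpb in KPG1 1 to KPG1 5. The KPG1 ratios were above those of 4 of 5 KP tumors, with KPG1 2 below KP 3. KP 5 was the one library with less Sftpc than Sftpb. There Sftpa1, Sftpb and Sftpd had their highest KP levels while Sftpc was in the middle of the 5. This ratio was looked at after the levels were known and was not tested.

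The collectins Sftpa1 and Sftpd opsonize microbes in the airspace. Sftpa1 was at 11.43, 13.38, 13.05, 12.35 and 14.06 log2 CPM in KP 1 to KP 5 and at 13.49, 13.23, 12.53, 12.94 and 13.37 log2 CPM in KPG1 1 to KPG1 5. Sftpd was at 9.40, 11.16, 11.15, 10.97 and 11.55 log2 CPM in KP 1 to KP 5 and at 11.57, 11.05, 10.35, 10.98 and 11.11 log2 CPM in KPG1 1 to KPG1 5. Both were lowest in KP 1 and highest among KP in KP 5, and the groups overlapped. Log2 fold changes were 0.26 for Sftpa1 (SE 0.42, limma adjusted p 0.856) and 0.16 for Sftpd (SE 0.37, adjusted p 0.897), with 95% intervals of -0.66 to 1.17 and -0.64 to 0.97. Without KP 1 they were -0.10 and -0.20. Within that interval a change of either sign could not be told from the spread.

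**Figure D3:**
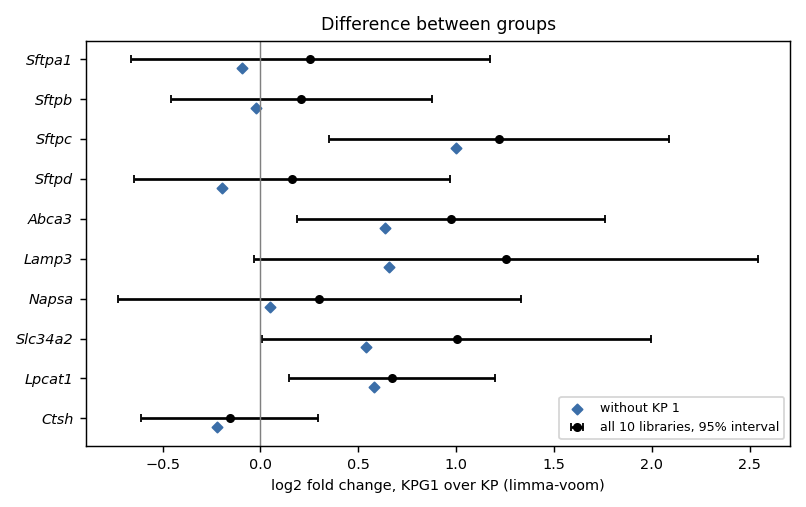
Points and bars give the log2 fold change of KPG1 over KP (x axis) and its 95% interval for each gene from the limma-voom fit to 10 libraries, and diamonds give the value without KP 1. Intervals of Sftpc, Abca3, Slc34a2 and Lpcat1 lie above 0, and without KP 1 the values of Sftpa1, Sftpb and Sftpd fall below 0.

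Of the proteins of the lamellar body membrane, Abca3 moves phospholipid into the organelle and Lamp3 is a lysosome-associated glycoprotein of its membrane. Abca3 was at 8.40, 10.35, 10.48, 9.62 and 9.99 log2 CPM in KP 1 to KP 5 and at 11.38, 10.64, 10.54, 10.64 and 10.55 log2 CPM in KPG1 1 to KPG1 5. Every KPG1 library was above every KP library, narrowly so for KP 3. Abca3 was the 1 gene of 10 with no overlap, where 1.05% of all tested genes had none with KPG1 higher. Its log2 fold change was 0.97 (SE 0.36, 95% interval 0.19 to 1.76), with a limma adjusted p of 0.332, and without KP 1 it was 0.64 (adjusted p 0.339), still with no overlap (background 2.05%).

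Lamp3 had the widest spread of the 10 genes over the KP libraries, but not over KPG1 or over KP without KP 1. It was at 6.89, 10.22, 9.90, 8.93 and 10.52 log2 CPM in KP 1 to KP 5 and at 10.70, 10.96, 10.03, 10.48 and 10.59 log2 CPM in KPG1 1 to KPG1 5. KP 1 was 4.14-fold below the next lowest KP library, and KP 2 and KP 5 reached the KPG1 range. Its log2 fold change was 1.25 (95% interval -0.03 to 2.54, SE 0.59) with an adjusted p of 0.441 in limma, and without KP 1 it was 0.66 (adjusted p 0.445). Mature dendritic cells also express Lamp3. Of 6 dendritic cell markers, 4 were too low to be tested, and the sum of all 6 was 3.81 to 13.3 CPM in KP and 7.09 to 18.2 CPM in KPG1, with KP 1 at 8.69 CPM. Their part in the level of Lamp3 was not tested.

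Slc34a2 and Lpcat1 supply the cell with building material. Slc34a2 takes up phosphate and Lpcat1 acylates lysophosphatidylcholine to the saturated phosphatidylcholine of surfactant. Slc34a2 was at 9.64, 11.97, 11.97, 11.36 and 12.58 log2 CPM in KP 1 to KP 5 and at 12.79, 12.75, 12.25, 12.41 and 12.34 log2 CPM in KPG1 1 to KPG1 5. KP 5 alone reached the KPG1 range, and without KP 5 the groups did not overlap (background 3.32% with KPG1 higher). KP 5 was left out here because it overlapped, so the separation follows from that choice. The background leaves out KP 5 for every gene and is not a like comparison. The log2 fold change was 1.00 (SE 0.45, 95% interval 0.01 to 2.00), with a limma adjusted p of 0.431, and 0.54 without KP 1 (adjusted p 0.426).

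Lpcat1 was at 9.14, 10.33, 9.62, 8.81 and 9.59 log2 CPM in KP 1 to KP 5 and at 10.28, 10.07, 10.16, 10.13 and 10.24 log2 CPM in KPG1 1 to KPG1 5. KP 2 was the highest of all 10 libraries and the other 4 KP libraries lay below all of KPG1. Without KP 2 the groups thus did not overlap (background 1.70% with KPG1 higher). This separation follows from leaving out the library that overlapped. The background leaves out KP 2 for every gene and is not a like comparison. The log2 fold change was 0.67 (SE 0.24, 95% interval 0.14 to 1.20), with a limma adjusted p of 0.322. Here KP 4, not KP 1, was the lowest tumor, and without KP 1 the value was 0.58 (adjusted p 0.423). Without KP 2 the log2 fold change was 0.88 (limma adjusted p 0.0872). That was the lowest adjusted p of Lpcat1 with a library left out, and the highest was 0.534.

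The proteases Napsa and Ctsh trim the precursors of surfactant protein B. Napsa, which encodes napsin A, a marker used in the diagnosis of lung adenocarcinoma, was at 8.12, 9.66, 9.50, 8.28 and 10.17 log2 CPM in KP 1 to KP 5 and at 10.47, 10.18, 8.67, 8.69 and 9.25 log2 CPM in KPG1 1 to KPG1 5. KPG1 split into 2 high and 3 lower libraries, all within or near the KP range, and the log2 fold change was 0.30 (SE 0.47, 95% interval -0.73 to 1.33, limma adjusted p 0.847). It rested on single libraries, at 0.046 without KP 1, 0.084 without KP 4, 0.035 without KPG1 1, 0.11 without KPG1 2 and 0.54 without KP 5. Ctsh, which encodes cathepsin H and is expressed in other cell types too, was at 10.81, 11.29, 11.16, 10.82 and 11.24 log2 CPM in KP 1 to KP 5 and at 10.96, 11.05, 10.17, 11.06 and 11.27 log2 CPM in KPG1 1 to KPG1 5. It was the gene of the 10 with a lower fitted value in KPG1, a log2 fold change of -0.16 (SE 0.21, 95% interval -0.61 to 0.29, limma adjusted p 0.810). The low value of KPG1 3 carried the sign, which turned without that library (0.02).

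For all 10 genes the range over the KP tumors was wider than the difference between the groups. A range of 5 values is readily wider than a difference of means. The share of all tested genes for which this holds was not counted, so whether it is particular to the 10 genes is not known. KP 1 was the lowest of the 5 KP libraries for 9 genes, all but Lpcat1, and the lowest of all 10 libraries for 8. KP 4 was among the 3 lowest of all 10 libraries for 10 of 10 genes. At the other end, KP 5 was the highest KP library for 6 genes, and KPG1 1 was the highest KPG1 library for 7 and the highest of all 10 libraries for 5. In KPG1 the low library was KPG1 3, lowest of its group for 8 genes. The genes share each library, so these counts are not independent of each other. How many of all tested genes were lowest or highest in the same libraries was not counted, so these counts do not set the 10 genes apart.

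**Figure D4:**
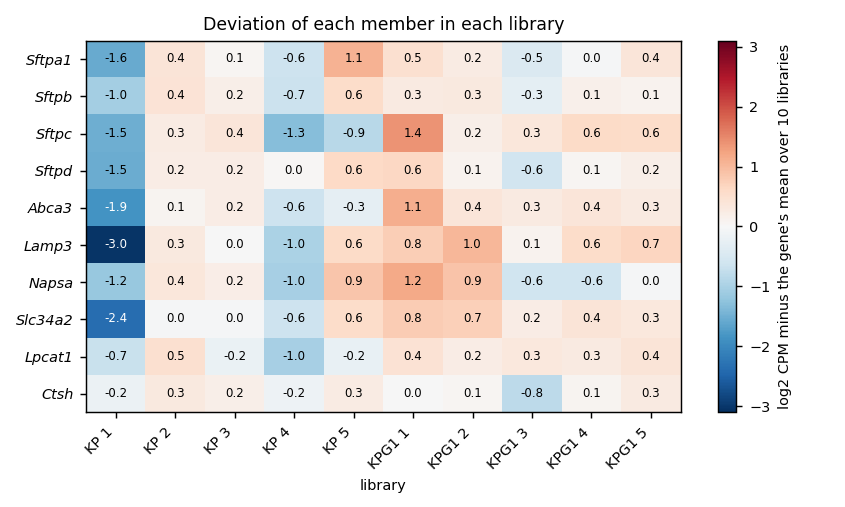
Cells give the log2 CPM of each gene (rows) in each library (columns) minus the mean of that gene over 10 libraries, with blue below and red above the mean. The column of KP 1 is blue throughout, from -3.0 for Lamp3 to -0.2 for Ctsh, and that of KP 4 is at or below 0 except for a value near 0 in Sftpd.

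How low KP 1 lay was not the same for each gene. Against the mean of the other 4 KP libraries, KP 1 was 8.05-fold lower for Lamp3, 5.01-fold for Slc34a2, 3.51-fold for Sftpd, 3.43-fold for Sftpa1 and 3.27-fold for Abca3. It was 2.43-fold lower for Napsa, 2.25-fold for Sftpb and 2.18-fold for Sftpc, and 1.37-fold and 1.24-fold lower for Lpcat1 and Ctsh. Sftpc and Sftpb, the genes with the highest mean TPM, were not those with the largest difference in this tumor.

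The SD over 5 KP libraries was 1.47 log2 units for Lamp3, 1.13 for Slc34a2, 1.01 for Sftpa1, 0.90 for Napsa, 0.88 for Sftpc, 0.84 for Sftpd, 0.83 for Abca3, 0.71 for Sftpb, 0.57 for Lpcat1 and 0.23 for Ctsh. In KPG1 it was 0.34 for Lamp3, 0.25 for Slc34a2, 0.38 for Sftpa1, 0.84 for Napsa, 0.46 for Sftpc, 0.44 for Sftpd, 0.35 for Abca3, 0.25 for Sftpb, 0.084 for Lpcat1 and 0.42 for Ctsh. All but Ctsh varied more in KP. The same held for 73.5% of all tested genes and for 75.6% of the 135 genes at least as abundant as the lowest of the 10, and the median SD over all tested genes was 0.39 in KP and 0.26 in KPG1. The KP spread of Lamp3 was above that of 96.8% of all tested genes, and the KPG1 spread of Lpcat1 was above that of 4.01%. In linear terms Lamp3 ranged over 12.4-fold in KP and 1.90-fold in KPG1, and Lpcat1 over 2.87-fold and 1.16-fold.

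Part of this width was KP 1. Without it the KP SD was 0.69 for Lamp3, 0.50 for Slc34a2, 0.39 for Abca3 and 0.24 for Sftpd, against 0.84 for Sftpc, 0.80 for Napsa, 0.71 for Sftpa1 and 0.62 for Lpcat1, which changed less. The KP spread was then wider than that of KPG1 for 7 of 10 genes, where 68.8% of all tested genes were. The 3 exceptions were Sftpd, Napsa and Ctsh. No test of unequal spread was run.

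**Figure D5:**
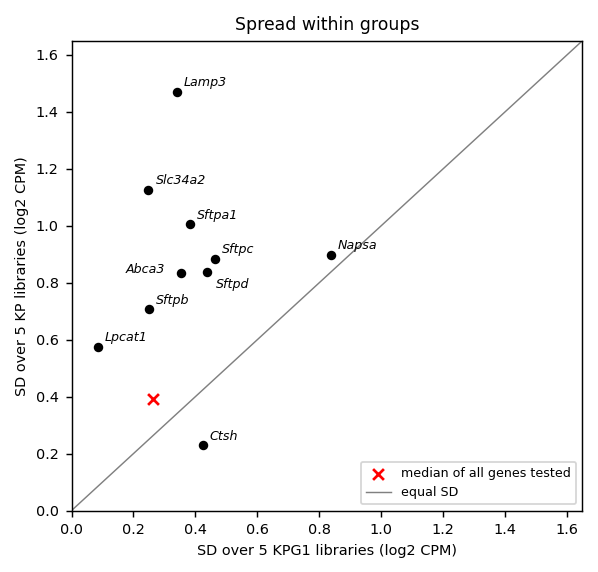
Each point is 1 gene, with the SD of log2 CPM over 5 KPG1 libraries on the x axis and over 5 KP libraries on the y axis. The line marks equal SD and the cross the median of all tested genes (0.26 in KPG1, 0.39 in KP), and all points but that of Ctsh lie above the line.

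Of 13 other AT2 markers, 11 were lowest of all 10 libraries in KP 1, the exceptions being Egfl6 and Fabp5. In KP 4, 9 were among the 3 lowest. The share of all tested genes with these ranks was not counted. Of these markers, Etv5 and Fabp5 are also in the pathway lists below, and some, such as Lyz2 and Cd74, are expressed by macrophages as well. All 13 of these markers had higher fitted values in KPG1 (background 52.7%), 0 passed the threshold, 4 had an unadjusted p under 0.05 (background 5.26%) and the groups did not overlap for 3 (background 1.05%), and the median log2 fold change was 0.76. Without KP 1 all 13 were still fitted higher (background 51.6%), 0 passed, 4 had an unadjusted p under 0.05 (5.59%), 3 had no overlap (2.05%) and the median was 0.51. Their summed level was 3236, 11749, 12807, 7636 and 12920 CPM in KP 1 to KP 5 and 21100, 20925, 11568, 13400 and 14064 CPM in KPG1 1 to KPG1 5. This sum, which the most abundant markers carry, was lowest in KP 1 and KP 4, followed by KPG1 3, and highest in KPG1 1. AT2 markers were thus present in every library, at unequal levels.

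Markers of other cells were also measured, and their part in the results was not tested. Alveolar type 1 markers summed to 1097 to 3509 CPM in KP and 1969 to 3619 CPM in KPG1, with 7 of 9 fitted higher in KPG1, and KP 1 was lowest here as well. Endothelial markers (7 of 7 fitted higher, 233 to 709 CPM in KP and 364 to 1074 CPM in KPG1) and fibroblast markers (7 of 7 fitted higher, 116 to 285 and 184 to 314 CPM) were present in every library. KP 1, low in the 10 genes, had the highest fibroblast sum of the KP libraries (285 CPM). KP 5 had the lowest endothelial and fibroblast sums of all libraries (233 and 116 CPM). KPG1 1, high in the 10 genes, had the highest alveolar type 1, endothelial and fibroblast sums of all libraries (3619, 1074 and 314 CPM). Of the club cell markers 2 of 5, of the ciliated markers 3 of 6 and of the erythroid markers 3 of 5 were fitted higher in KPG1, with sums of 91.4 to 200.2, 272 to 443 and 86.3 to 473 CPM in KP and of 143 to 367, 250 to 346 and 153 to 330 CPM in KPG1. Leukocyte markers, in a fraction depleted of CD45+ cells, summed to 46.5 to 84.1 CPM in KP and 32.7 to 68.3 CPM in KPG1, with 2 of 6 tested fitted higher. Alveolar macrophages, which take up surfactant, had marker sums of 42.8 to 153 CPM in KP and 38.4 to 84.7 CPM in KPG1, with 1 of 7 fitted higher. Over all tested genes 52.7% were fitted higher in KPG1, the background for each of these counts. No gene of these lists passed the threshold. Across the 10 libraries the defining marker Ptprc (CD45) was low but not at 0, at 5.21 to 10.97 CPM. Scgb1a1 was at 7.17 to 139 CPM, and Pecam1, which was not low, was at 68.9 to 306 CPM.

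The rest of the surfactant pathway did not change as a block. The background for the counts of genes fitted higher in the lists below is 52.7% of all tested genes. Of 19 genes of phospholipid and fatty acid synthesis, 11 were fitted higher and 8 lower in KPG1, 0 passed, and the median log2 fold change was 0.26. Among genes whose mean log2 CPM was 1 or more, the extremes were Fabp5, a fatty acid binding protein, at 0.87 (limma adjusted p 0.693), and Chka, the kinase that commits choline to phosphatidylcholine, at -0.55 (adjusted p 0.363). Fabp5 was lowest in KP 5, at 13.8 CPM there against 154 to 388 CPM in the other KP libraries. Fasn and Scd1, which make and desaturate palmitate and were picked after their values were seen, had log2 fold changes of 0.72 (adjusted p 0.311) and 0.79 (adjusted p 0.464) and were lowest in KP 1, at 562 and 729 CPM.

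Of 20 genes of lamellar body traffic and precursor handling, 14 were fitted higher and 6 lower and 0 passed, with a median log2 fold change of 0.08. Rab27a, a small GTPase of secretory organelles, stood at the upper end with 0.61 (limma adjusted p 0.36), and Hps5, a subunit of a complex that builds lysosome-related organelles, at the lower end with -0.19 (adjusted p 0.790). For secretion, reuptake and clearance the balance was the other way, with 3 of 14 genes fitted higher, 11 lower and 0 past the threshold, and a median of -0.15. Adora2b, an adenosine receptor, stood at the upper end with 0.59 (limma adjusted p 0.606). Anxa2, a membrane-fusing annexin named after its values were seen, was at 938 to 1379 CPM in KP and 533 to 897 CPM in KPG1. The groups did not overlap, where 1.76% of all tested genes had none with KPG1 lower. Its limma log2 fold change was -0.57 (adjusted p 0.240).

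Of 16 regulators of surfactant genes, 15 were tested, of which 10 were fitted higher and 5 lower and 0 passed, with a median log2 fold change of 0.15. Etv5, an ETS factor of AT2 cells, was highest at 0.57 (limma adjusted p 0.469), and it was lowest in KP 1 (83.6 CPM) and KP 4 (133 CPM), the tumors low in the 10 genes. Egfr was at -1.47 (adjusted p 0.436), with 1.07 to 17.9 CPM in KP and 1.75 to 2.12 CPM in KPG1. Nkx2-1 and Foxa1, also named after their values were seen, did not share the low level of KP 1. Nkx2-1 was at 290 CPM there and at 294, 189, 162 and 304 CPM in KP 2 to KP 5. Foxa1 was at 99.7 CPM in KP 1, above the other KP libraries at 53.8 to 62.5 CPM. Cebpa was lowest in KP 1, at 198 CPM against 260 to 422 CPM in the other KP libraries. Below the mean log2 CPM of 1 used for naming, the phosphatidylcholine synthesis gene Pcyt1b had a limma log2 fold change of -1.77 (adjusted p 0.302), with 1.10 to 7.72 CPM in KP and 0.459 to 2.11 CPM in KPG1. DESeq2 called 3 genes of these 4 lists, Pcyt1b, Anxa2 and Egfr, all lower in KPG1, where it called 3.46% of all tested genes.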

How the data were processed

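RNA sequencing of 10 libraries was used, 5 per group, grouped by the labels. The deposited counts are whole reads per Ensembl gene for 39017 genes, not normalized. The submitters' processing notes list bcl2fastq 2.17, cutadapt 1.4.2, HISAT2, featureCounts 1.4.4 and edgeR with build mm10, while strand setting and annotation release are not given in the sources used here. The library kit was stranded, with 500 ng RNA as input. A deposited table of log2 values, which the authors made with TMM and voom, served as an alternative. The joint and the single-library tables held the same 390170 counts, and no 2 libraries of the same group agreed within sampling noise. Pairs across the groups were not checked in this way.

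The filterByExpr function of edgeR 4.0.16 left 16216 genes, which were scaled by TMM and fitted by voom and limma 3.58.1 in R 4.3.3 with genotype as the single term. P-values were adjusted by Benjamini-Hochberg over all tested genes, with a threshold of 0.05. The study's filter was on TPM, and filterByExpr took its place. Log2 CPM used a prior count of 2, and TPM used exon lengths from GENCODE M21, which held 96.6% of the IDs. The counts took no account of PCR copies. Wilson intervals of shares cover counting error only, while intervals of log2 fold changes come from the limma fit and rest on the spread between libraries. DESeq2 1.42.0, edgeR's quasi-likelihood test, library weights, other scalings and filters, a replicate block, the sample number as covariate and each library left out were alternatives. The scripts were tested on simulated data. Plots used matplotlib.

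The members, the pathway lists and the marker lists were chosen with earlier results of these data known. Named genes were the 10 members, Slc2a1, list genes past the threshold, the highest and lowest log2 fold change in each list among genes whose mean log2 CPM was 1 or more, and Ptprc, Pecam1 and Scgb1a1. Other names were chosen after their values were seen. The engineered alleles that start the tumors and 1 gene picked by this rule are not reported here.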

Additional observations from a re-analysis of the deposited data

Results flagged for a closer look

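A library was marked where its gap to the nearest of the other 4 of its group exceeded 0.71 of the group's range (Dixon's criterion). Chance marks about 1 in 20 groups, 2.2 of the 44 groups of 5 searched here, and 4 were found. Sftpd was at 9.40 log2 CPM in KP 1, against 10.97 to 11.55 in the other KP libraries. KPG1 1 had 11.38 log2 CPM of Abca3, where its group otherwise ranged from 10.54 to 10.64, and the log2 fold change of Abca3 keeps its sign without either KP 1 or KPG1 1. KPG1 3 had 10.17 log2 CPM of Ctsh, where the other 4 ranged from 10.96 to 11.27, and it is the value on which the sign of the Ctsh difference rests. The log2 of the summed CPM of club cell markers (plus 1) was 6.53 in KP 5, against 7.34 to 7.65 in the other KP libraries.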

How the results depend on the processing

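The count of members past the threshold was 0 under all 23 alternatives to limma-voom, and Sftpc, Abca3, Lamp3, Napsa, Slc34a2 and Lpcat1 kept a higher fitted value in KPG1 in each of them. Signs turned for Sftpa1 without KP 1 (-0.10), for Sftpb without KP 1 (-0.021) and with the sample number as covariate (-0.0034), for Sftpd without KP 1 (-0.20) and without KP 1 and KP 5 together (-0.097), and for Ctsh without KPG1 3 (0.025). With 1 library left out the ranges were -0.10 to 0.54 for Sftpa1, -0.021 to 0.36 for Sftpb, -0.20 to 0.33 for Sftpd, 0.035 to 0.54 for Napsa and -0.25 to 0.025 for Ctsh. These values are log2 fold changes, the cause was not tested, and the last pair of libraries, like the AT2 markers without KP 1, was chosen after seeing the data. With 1 library left out, 6 to 10 members were fitted higher, 2 to 5 had an unadjusted p under 0.05 and 1 to 2 had no overlap (2 without KP 1 and KP 5 together), and the difference in the share of counts was 1.38 to 2.39 percentage points. With the sample number as covariate, 2 members (Sftpc and Abca3) had an unadjusted limma p under 0.05, and Slc34a2 and Lpcat1 were at 0.23 and 0.11. Sample numbers were 11, 12, 15, 16 and 6 in KP 1 to KP 5. In KPG1 1 to KPG1 5 they were 10, 1, 4, 5 and 9. Only KP 5 lay among the KPG1 numbers, so number and genotype largely run together and cannot be fully told apart. Of other pathway genes, 3 passed by DESeq2.

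Over all genes 10 passed higher and 18 lower, and the counts changed to 125 and 423 by DESeq2 and 51 and 177 with library weights. Higher counts were 5 at a mean CPM of at least 20, and lower counts were 31 there, 31 with no filter, 29 at a mean TPM of at least 20, 29 by edgeR and 44 without KP 1 and KP 5 together. The sample number gave 4 and 4, and leaving out 1 library gave 3 to 71 higher and 1 to 223 lower, both most without KP 5. Slc2a1 passed by DESeq2 (-1.04), with library weights (-1.13), without KP 5 (-1.14) and without KP 1 and KP 5 together (-1.29), and was between -1.14 and -0.92 with 1 library left out. The labels number the replicates in both groups, but libraries with the same number did not deviate together (correlations -0.161 to 0.076, 1 of 5 closest to its own number). No pairing was seen, although these correlations cannot exclude one. With the replicate block 4 genes were higher and 1 lower, and 0 members passed. Median log2 fold changes over all genes stayed within 0.1 of 0 under each setting. Depth did not limit the members, since the lowest count of a member in any library was 4900.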
